A study of Mus musculus with 21 samples.

Results

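The motile cilia genes followed here encode the regulators, dynein arms, radial spokes, central apparatus and assembly factors of beating cilia, together with transcripts of the ciliated cells that carry them. They are a list of 43 symbols grouped by function and drawn up with earlier results of these data known, so the counts below are not independent evidence of a change. Of these, 41 were present in the per-library counts and all 41 passed the count filter, among 14727 genes tested of 23238 symbols; Dnah3 and Dnah12 were not analysed here. RNA was taken from the lungs of 21 C57BL/6 mice, 3 in each of 7 groups, after bronchoalveolar lavage. Dosing was intratracheal, 50 µL each day for 14 days, and lungs were collected on day 15. Propylene glycol (PG), which e-cigarette liquids contain as a solvent, was dosed at 826 (animals 22, 23 and 25) or at 1100 (animals 27, 28 and 30), with saline as its control (animals 6, 8 and 10). Vitamin E acetate (VEA), an oil added to some vaping products, was dosed at 3.12 (animals 56, 57 and 59), 6.25 (animals 63, 64 and 65) or 12.5 (animals 66, 68 and 70), with 10% ethanol as its control (animals 12, 13 and 14). The sample labels state the doses in mg/kg and the series description states the same numbers in mg/mL, so the numbers are used without a unit. What VEA was given in is not stated, and a VEA change below is a difference from the 10% ethanol animals. The PG doses share the saline animals and the VEA doses share the ethanol animals, so comparisons with the same control are not independent.

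Motile cilia are hair-like extensions that cover multiciliated cells of the conducting airways, and their coordinated beating carries mucus out of the lung. Each has a ring of microtubule doublets around a central pair. Outer and inner dynein arms on the doublets make the beat, and radial spokes, the central apparatus and ruler proteins set its form. Foxj1 and the RFX factors switch on the genes for these parts when a cell builds motile cilia, and cytoplasmic factors assemble the dyneins before they enter the cilium. In whole lung, such cells are a minority beside alveolar, vascular and blood cells.

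RFX factors bind X-box sequences and Foxj1 binds forkhead sequences, so the starts of the member genes were searched for the short core of each. The letters searched were GTTGCC and its complement GGCAAC for RFX, and TGTTTAC and its complement GTAAACA for forkhead factors. RefSeq windows of 300 bases on GRCm38.p6, 250 before and 50 after the start, were found for 36 of the 43 genes (39 windows). The RFX core was present in 35.9% of these windows, 14 of 39, against 12.5% of the 32851 windows of all genes. In 9 of the 14 genes a copy lay before the start, and in 5 the copies lay only after it. The forkhead core was present in 5.13% of member windows, 2 of 39, against 3.65% of all windows, and no member window held both cores (0.447% of all windows did). A match describes these letters only and is not a measured binding site. The stretches below are the 60-base pieces with an RFX core within 40 bases before the start (Ccdc113, Dnah10, Dnaic2, Hydin and Tekt1), the RFX core of Rfx2 itself, and both forkhead matches (Ak7 and Cep126). They are written on the strand of the gene, with the searched letters in capitals.
Ccdc113: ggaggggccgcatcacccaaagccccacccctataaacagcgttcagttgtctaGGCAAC
Hydin: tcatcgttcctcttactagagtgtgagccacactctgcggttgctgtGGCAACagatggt
Dnah10: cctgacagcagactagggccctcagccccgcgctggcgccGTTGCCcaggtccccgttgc
Dnaic2: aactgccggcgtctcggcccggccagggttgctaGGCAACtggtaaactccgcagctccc
Tekt1: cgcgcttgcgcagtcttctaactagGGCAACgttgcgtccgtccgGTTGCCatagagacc
Rfx2: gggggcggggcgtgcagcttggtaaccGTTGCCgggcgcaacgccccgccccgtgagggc
Ak7: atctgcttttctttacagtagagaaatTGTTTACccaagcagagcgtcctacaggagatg
Cep126: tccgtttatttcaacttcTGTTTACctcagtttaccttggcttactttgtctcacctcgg
These pieces lie at chr8:95534040-95534099 (Ccdc113, plus strand), chr8:110266917-110266976 (Hydin, plus), chr5:124725025-124725084 (Dnah10, plus) and chr11:114727359-114727418 (Dnaic2, plus). The others lie at chr11:72361883-72361942 (Tekt1, minus strand), chr17:56831092-56831151 (Rfx2, minus), chr12:105705824-105705883 (Ak7, plus) and chr9:8134637-8134696 (Cep126, minus). The RFX core began 6 bases before the start in Ccdc113, 13 in Hydin, 20 in Dnah10, 26 in Dnaic2, 35 and again 15 in Tekt1, and 116 in Rfx2. The forkhead core began 131 bases before the start in Ak7 and 232 in Cep126. Among these 8 genes Hydin, Ccdc113, Ak7 and Cep126 fell in at least 1 comparison below, and Dnah10, Dnaic2, Tekt1 and Rfx2 passed the test in none. The 8 were picked by their matches, and whether a match goes with a call was not tested.

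Libraries were made with a kit that reads the 3′ end of each transcript, so a count is a transcript end and does not grow with gene length. Total counts were 8778028 to 11783151 per library, with 14843 to 15992 genes detected. The unit of a level is CPM, a count relative to the TMM-scaled size of its library, and 1 CPM stands for 8.21 to 13.0 counts. Values of a group are listed in the order of its animal numbers above, and means are ± SD with n = 3. Changes are log2 fold changes ± SE from edgeR's quasi-likelihood test. A gene is called, or said to have risen or fallen, when its p, adjusted by Benjamini-Hochberg over the 14727 genes, was below 0.05. Haemoglobin transcripts took 6.49% to 13.8% of counts after saline, 8.49% to 10.5% after ethanol and 4.06% to 9.06% in the treated groups. Rn45s took 21.6% to 22.0% after saline, 18.5% to 21.3% after ethanol and 16.4% to 20.8% after PG. After VEA 3.12, 6.25 and 12.5 it took 19.2% to 25.4%, 22.1% to 26.1% and 14.6% to 19.2%. The numbers of members called below were the same with haemoglobin genes and Rn45s left out. Counts of the members summed to 607107 over the 21 libraries. Sec14l3 supplied 76.8% of them and Tppp3 11.1%, so the other 39 members rest on 12.1%. By their mean over all libraries, 18 of the 41 members lay under 5 CPM, 17 between 5 and 20 CPM and 6 at 20 CPM or more. The median SE was 0.56, 0.34 and 0.19 in these classes for PG 1100 against saline.

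Motile cilia genes were lower in the treated lungs, and none was called higher in any of the 5 comparisons with a control. After PG 826, 1 of 41 members fell, where 0.0407% of all genes tested fell. After PG 1100, 10 fell (24.4% of members, against 3.23% of all genes). After VEA 3.12, 14 fell (34.1%, against 2.09%). After VEA 6.25, 13 fell (31.7%, against 2.25%), and after VEA 12.5, 12 fell (29.3%, against 4.23%). Of all genes 0.0951%, 4.09%, 3.42%, 3.51% and 5.48% were called higher in the same 5 comparisons. In RNA of whole lung, fewer ciliated cells and less of these transcripts per ciliated cell cannot be told apart.

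The median log2 fold change of the 41 members was -0.66 after PG 826, -0.62 after PG 1100, -0.87 after VEA 3.12, -0.76 after VEA 6.25 and -0.81 after VEA 12.5. The median of all genes tested lay between -0.014 and 0.0061 in these comparisons. Estimates were below 0 for 38, 37, 40, 39 and 40 of the 41 members in the same order. All 3 treated animals lay below all 3 controls for 13 members after PG 826 (6.67% of all genes were separated this way), 13 after PG 1100 (9.69%), 22 after VEA 3.12 (11.8%), 22 after VEA 6.25 (11.5%) and 21 after VEA 12.5 (14.8%). The summed level of the 39 members other than Sec14l3 and Tppp3 was 437 to 583 CPM after saline, 308 to 357 CPM after PG 826 and 262 to 401 CPM after PG 1100. It was 367 to 573 CPM after ethanol, 251 to 311 CPM after VEA 3.12, 255 to 301 CPM after VEA 6.25 and 299 to 304 CPM after VEA 12.5. On this sum each treated group lay below its control without overlap. The sum of all 41 members, most of it Sec14l3, did overlap after PG. It was 3277 to 4371 CPM after saline, 3348 to 3766 CPM after PG 826 and 2351 to 3314 CPM after PG 1100. For VEA it did not overlap, at 3242 to 4011 CPM after ethanol and 2047 to 2703 CPM over the VEA animals.

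The number of calls depended on single animals, and calls over all genes also changed when an animal was left out. Leaving out 1 animal at a time, the members' median stayed below 0 in every one of these 5 comparisons, and no member was called higher. The count of members called after PG 1100 was 5 without saline 8 and 4 without saline 10, PG 27 or PG 28. After VEA 3.12 it was 2 without ethanol 12, 6 without ethanol 13 or VEA 56, 7 without VEA 57 and 3 without VEA 59. After VEA 6.25 it was 6 without ethanol 12 or VEA 64, 5 without ethanol 13 and 4 without VEA 65. After VEA 12.5 it was 2 without ethanol 12, 7 without ethanol 13 or VEA 66, 4 without VEA 68 and 6 without VEA 70. Over all genes tested, the share called lower with 1 animal left out was 1.47 to 3.56% after PG 1100 and 0.924 to 1.46, 0.931 to 2.09 and 2 to 2.94% after the rising VEA doses. The matching share of the members was 9.76 to 24.4% after PG 1100 and 4.88 to 39.0, 9.76 to 34.1 and 4.88 to 26.8% after the VEA doses. In these 4 comparisons the members' share came nearest to that of all genes without ethanol 12, at 4.88% against 2.90% after VEA 12.5 and 4.88% against 1.42% after VEA 3.12. With 2 members called in each of those fits, the count is not a result about the members. The 1 call after PG 826 was lost without saline 8, saline 10, PG 23 or PG 25, and 3 members were called without saline 6. With only the compared groups in the fit, 0 were called after PG 826, where 0.0517% of all genes were called lower. After PG 1100 the same fit called 3 (7.69% of members, against 1.36% of all genes). After the rising VEA doses it called 16, 13 and 16 members (41, 31.7 and 40%, against 3.1, 2.85 and 6.96%). Without the 3 libraries of fewest detected genes (saline 8, ethanol 13 and VEA 65), 0, 6, 7, 4 and 8 members were called lower after PG 826, PG 1100 and the rising VEA doses, against 0.0134, 2.66, 1.21, 0.682 and 3.04% of all genes.

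**Figure D1:**
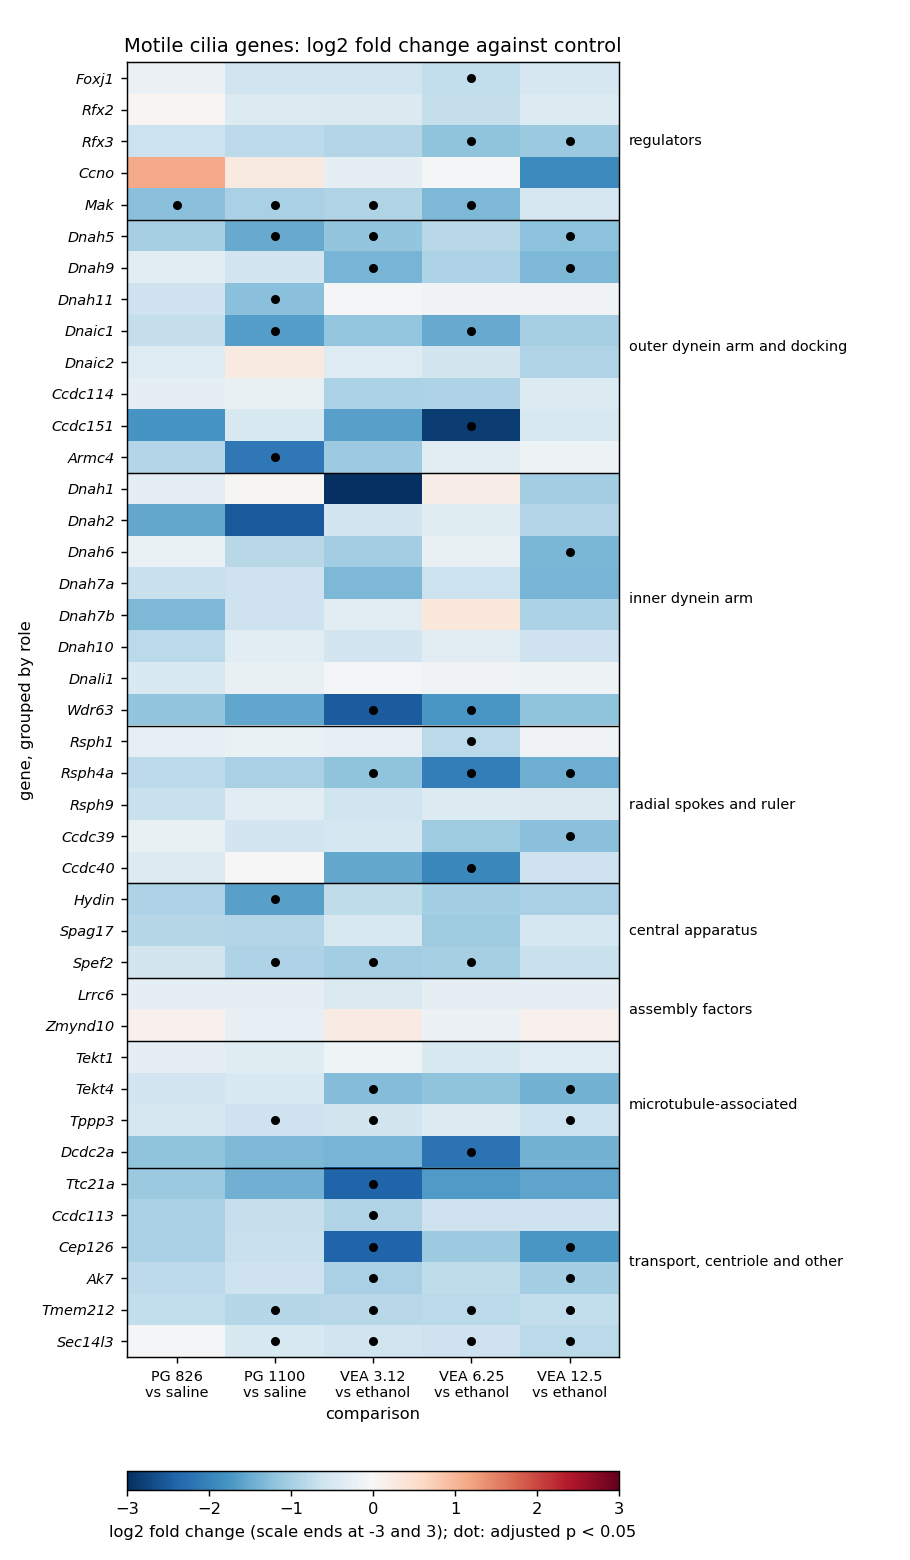
Log2 fold change of the 41 motile cilia genes (rows, grouped by role) in the 5 comparisons with a control (columns), with a dot where the adjusted p was below 0.05. The colour scale ends at -3 and 3, and Dnah1 after VEA 3.12, which had 1 count over the 3 treated libraries, lies past its lower end. Blue, lower in the treated lungs, fills most cells, and every dot lies in a blue cell.

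Among the regulators, Foxj1, the transcription factor at the head of the motile cilium programme (chromosome 11, 116330704 to 116335399), was measured at 41.4, 28.7 and 37.8 CPM in the saline animals, 40.1, 28.0 and 27.4 CPM after PG 826 and 26.7, 21.6 and 23.4 CPM after PG 1100. Its levels were 40.0, 56.5 and 32.3 CPM after ethanol, 28.1, 28.5 and 28.2 CPM after VEA 3.12, 26.0, 27.0 and 24.1 CPM after VEA 6.25 and 32.6, 34.9 and 23.7 CPM after VEA 12.5. The PG 1100, VEA 3.12 and VEA 6.25 animals all lay below their controls, and ethanol 13 was the highest of the 21. Foxj1 fell after VEA 6.25, by 0.74 on the log2 scale (SE 0.20) (adjusted p = 0.0198). It did not pass after PG 1100 (-0.59 ± 0.20, adjusted p = 0.0627), VEA 3.12 (-0.60 ± 0.20, adjusted p = 0.0652), VEA 12.5 (-0.50 ± 0.20, adjusted p = 0.108) or PG 826 (-0.18 ± 0.20, adjusted p = 0.843). Its call ended without ethanol 13, VEA 64 or VEA 65 or without the 3 libraries of fewest detected genes (adjusted p up to 0.369).

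Mak, a kinase that acts in the cilium on its length (chromosome 13, 41025008 to 41079706), fell in 4 of the 5 comparisons and was the 1 member called after PG 826. It stood at 18.4, 20.9 and 21.02 CPM after saline, 10.4, 9.83 and 5.10 CPM after PG 826 and 7.73, 13.4 and 9.80 CPM after PG 1100. After ethanol it stood at 16.4, 21.5 and 14.8 CPM, and after VEA 3.12, 6.25 and 12.5 at 11.1, 9.14 and 7.72 CPM, 5.94, 6.91 and 7.83 CPM and 13.2, 12.8 and 11.4 CPM. No treated group overlapped with its control. Mak fell by 1.25 (SE 0.27) after PG 826, 0.97 (SE 0.27) after PG 1100, 0.91 (SE 0.27) after VEA 3.12 and 1.35 (SE 0.27) after VEA 6.25 on the log2 scale (adjusted p = 0.0379, 0.0176, 0.036 and 0.00166). After VEA 12.5 the change was -0.49 ± 0.26 (adjusted p = 0.272). The VEA 6.25 call held under all 13 alternatives. The PG 826 call ended without saline 8, saline 10, PG 23 or PG 25, with only the compared groups in the fit or without the 3 libraries of fewest detected genes (adjusted p up to 0.306), the PG 1100 call without saline 8, saline 10, PG 27 or PG 30 or with only the compared groups in the fit (adjusted p up to 0.09), and the VEA 3.12 call without ethanol 12, ethanol 13, VEA 57 or VEA 59 or without the 3 libraries of fewest detected genes (adjusted p up to 0.193).

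Rfx3, an X-box binding factor, fell after VEA 6.25 (-1.20 ± 0.35, adjusted p = 0.0334) and VEA 12.5 (-1.12 ± 0.34, adjusted p = 0.0305), from 11.3 ± 3.10 CPM after ethanol to 4.90 ± 2.47 and 5.21 ± 0.866 CPM. These calls ended without ethanol 12, ethanol 14 or VEA 65, with only the compared groups in the fit or without the 3 libraries of fewest detected genes (adjusted p up to 0.224) and without ethanol 12, ethanol 14, VEA 66, VEA 68 or VEA 70 (adjusted p up to 0.172). Rfx2, its relative, and Ccno, a cyclin-like protein needed to multiply centrioles, passed in no comparison. Ccno lay under 6 CPM in every library and was the member with the highest estimate after PG 826 (1.13 ± 0.81) and the lowest after VEA 12.5 (-1.90 ± 0.86).

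Of the 8 outer dynein arm and docking members, 4 fell after PG 1100, with a median of -0.91 for the 8, and 2 fell after each VEA dose. Of all genes 3.23% fell after PG 1100 and 2.09, 2.25 and 4.23% after the rising VEA doses. Dnah5, a heavy chain whose motor domain drives the arm (chromosome 15, 28203752 to 28472052), stood at 18.5, 21.2 and 17.4 CPM after saline, 12.2, 9.48 and 7.08 CPM after PG 826 and 6.28, 4.76 and 8.91 CPM after PG 1100. It stood at 24.0, 14.7 and 9.49 CPM after ethanol and at 8.28, 4.73 and 8.05 CPM, 11.4, 7.75 and 8.07 CPM and 8.79, 5.61 and 6.14 CPM after VEA 3.12, 6.25 and 12.5. The saline animals were close together, the ethanol animals were spread, and ethanol 14 lay within the range of VEA 6.25. Dnah5 fell by 1.52 on the log2 scale (SE 0.32) after PG 1100 (adjusted p = 0.00153), by 1.19 (SE 0.32) after VEA 3.12 (adjusted p = 0.0182) and by 1.23 (SE 0.31) after VEA 12.5 (adjusted p = 0.00796). The estimates were -0.99 ± 0.31 after PG 826 (adjusted p = 0.257) and -0.82 ± 0.31 after VEA 6.25 (adjusted p = 0.122). The PG 1100 call held under all 13 alternatives. The VEA 3.12 call ended without ethanol 12 or VEA 57 (adjusted p up to 0.214) and the VEA 12.5 call without ethanol 12, VEA 68 or VEA 70 (adjusted p up to 0.139).

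Dnaic1, an intermediate chain of the same arm, gave the second smallest adjusted p after PG 1100 (chromosome 4, 41569775 to 41638158). Its levels were 11.2, 11.6 and 12.6 CPM after saline, 7.78, 7.48 and 6.25 CPM after PG 826 and 1.45, 3.77 and 6.12 CPM after PG 1100. After ethanol and the VEA doses they were 11.7, 16.95 and 7.34 CPM, 6.18, 5.59 and 4.30 CPM, 4.86, 4.50 and 3.13 CPM and 4.78, 6.17 and 6.98 CPM. All 5 treated groups lay below their controls. Dnaic1 fell by 1.65 (SE 0.37) after PG 1100 (adjusted p = 0.00342), which held under all 13 alternatives, and by 1.52 (SE 0.37) after VEA 6.25 (adjusted p = 0.00978), which ended without ethanol 13 or VEA 65 or without the 3 libraries of fewest detected genes (adjusted p up to 0.265). Dnaic2, the other intermediate chain, passed in no comparison and had 0.852 to 7.42 CPM over the 21 libraries.

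Of the other heavy chains of this arm, Dnah11 fell after PG 1100 (-1.26 ± 0.39, adjusted p = 0.0425), while Dnah9 fell after VEA 3.12 (-1.39 ± 0.42, adjusted p = 0.0429) and VEA 12.5 (-1.36 ± 0.42, adjusted p = 0.0299). Dnah11 averaged 10.6 ± 1.29 CPM in saline lungs against 4.43 ± 1.92 CPM at PG 1100. Dnah9 was 9.78 ± 3.34 CPM after ethanol, 3.74 ± 2.73 CPM after VEA 3.12 and 3.82 ± 0.834 CPM after VEA 12.5. These calls ended without saline 6, saline 8, saline 10, PG 27 or PG 30, with only the compared groups in the fit or without the 3 libraries of fewest detected genes (adjusted p up to 0.174) for Dnah11, and for Dnah9 without ethanol 12, ethanol 13, VEA 56 or VEA 59, with only the compared groups in the fit or without the 3 libraries of fewest detected genes (adjusted p up to 0.227) and without ethanol 12, ethanol 13, VEA 66, VEA 68 or VEA 70 or without the 3 libraries of fewest detected genes (adjusted p up to 0.141).

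Ccdc151, Ccdc114 and Armc4 belong to the complex that docks the outer arm onto the doublet. Ccdc151 stood at 9.66, 5.83 and 2.27 CPM after ethanol and at 2.09, 1.29 and 2.32 CPM, 1.62, 0.314 and 0.482 CPM and 5.94, 3.09 and 3.62 CPM after the rising VEA doses. The 3 VEA 6.25 animals were the lowest of these 4 groups apart from VEA 57, which lay within their range. It fell by 2.85 on the log2 scale (SE 0.59) after VEA 6.25 (adjusted p = 0.00224), a call that ended with limma-voom (adjusted p = 0.0506). Armc4 fell after PG 1100 (-2.15 ± 0.66, adjusted p = 0.0399), with 2.17, 8.28 and 8.95 CPM after saline and 0.386, 0.886 and 3.12 CPM after PG 1100, where saline 6 lay within the treated range. That call ended without saline 8, saline 10, PG 27 or PG 28, with limma-voom, with only the compared groups in the fit or without the 3 libraries of fewest detected genes (adjusted p up to 0.19). Ccdc114 passed in no comparison.

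**Figure D2:**
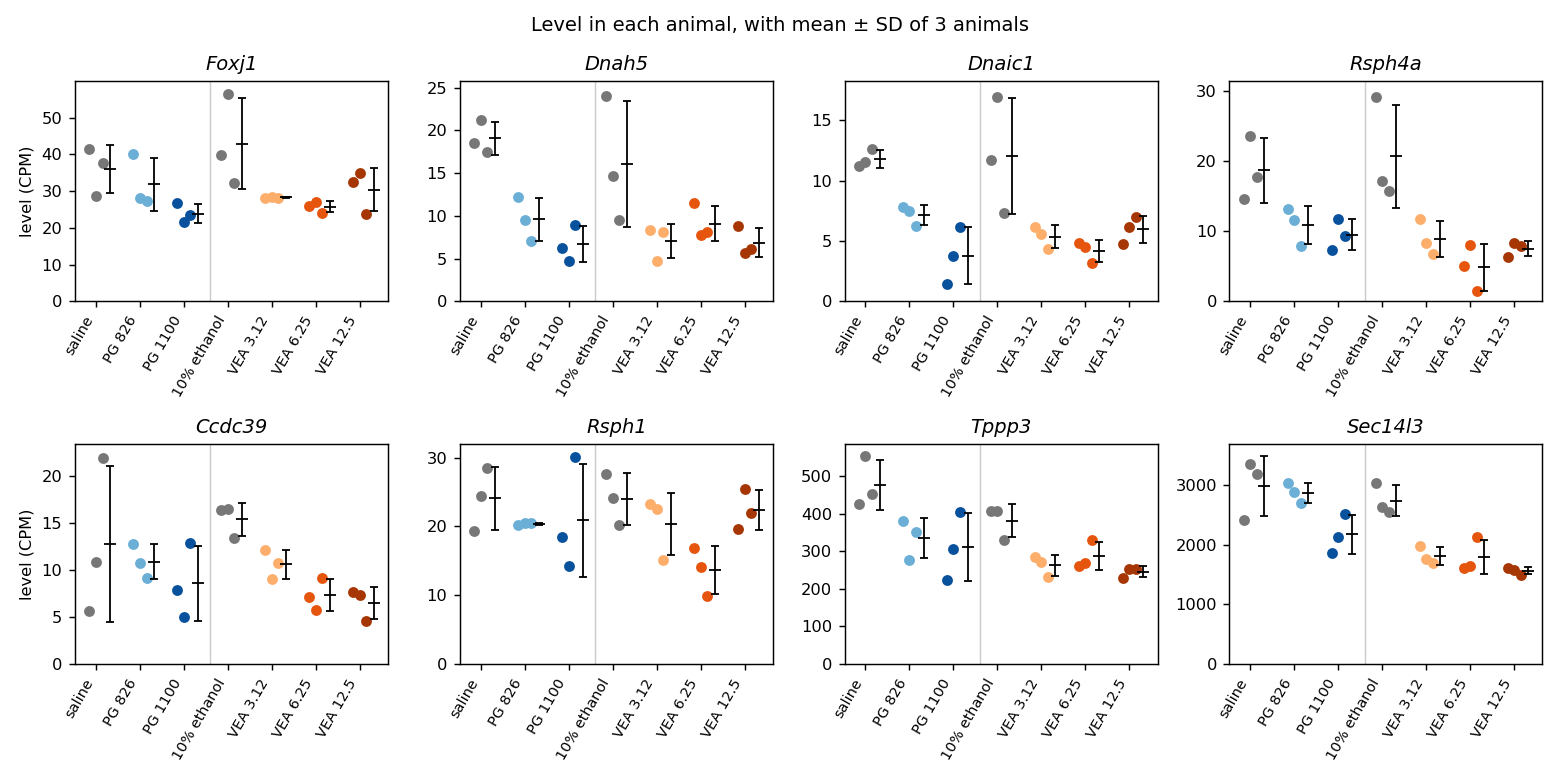
CPM (vertical axes, from 0) in each animal of the 7 groups (horizontal axes) for 8 motile cilia genes, with the mean and SD of 3 animals beside the points; a grey line separates the PG experiment from the VEA experiment. The saline animals lie between 17.4 and 21.2 CPM for Dnah5 and all PG animals lie below them, while Ccdc39 spans 5.62 to 21.9 CPM within saline alone.

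Of the 8 inner dynein arm genes, 0 were called after PG 1100 and 1 after each VEA dose, and all but Dnali1 averaged under 5 CPM. Of all genes 3.23% fell after PG 1100 and 2.09, 2.25 and 4.23% after the rising VEA doses. With so few genes these counts are not a result about the inner arm. Wdr63, an intermediate chain linked to the inner arm (chromosome 3, 146040526 to 146108130), was the member with the smallest adjusted p after VEA 3.12. It was measured at 12.2, 10.5 and 4.96 CPM after ethanol and at 1.33, 2.36 and 1.21 CPM, 3.99, 1.57 and 2.65 CPM and 5.01, 3.66 and 3.28 CPM after VEA 3.12, 6.25 and 12.5. The VEA 3.12 and 6.25 animals lay below all ethanol animals, and VEA 66 just reached ethanol 14. Wdr63 fell by 2.49 on the log2 scale (SE 0.54) after VEA 3.12 (adjusted p = 0.00339), which held under all 13 alternatives. It fell by 1.75 (SE 0.52) after VEA 6.25 (adjusted p = 0.0366), which ended without ethanol 12, ethanol 13, VEA 64 or VEA 65, with limma-voom or without the 3 libraries of fewest detected genes (adjusted p up to 0.236).

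Dnah6, an inner arm heavy chain, fell after VEA 12.5 (-1.37 ± 0.45, adjusted p = 0.0461), from 5.93 ± 0.434 to 2.29 ± 1.05 CPM, a call that ended without ethanol 12, ethanol 13, ethanol 14, VEA 66 or VEA 68, without the count filter or without the 3 libraries of fewest detected genes (adjusted p up to 0.215). The heavy chains Dnah1, Dnah2, Dnah7a, Dnah7b and Dnah10 stood below 8 CPM in every library and passed nowhere. Dnah7a and Dnah7b are near copies, with 24.2% of the 50-base words in the last 1000 transcript bases of each found in the other, so reads could be shared between them. Dnali1, a light intermediate chain with the highest counts of this group, passed in no comparison either. It stood at 61.5 ± 7.02 CPM after saline, 45.01 ± 8.41 CPM after PG 826, 53.0 ± 16.4 CPM after PG 1100, 47.9 ± 12.4 CPM after ethanol and 43.4 ± 6.05 CPM after VEA 12.5.

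The radial spoke head gene Rsph4a (chromosome 10, 33905111 to 33916021) fell after all 3 VEA doses. It stood at 29.1, 17.2 and 15.8 CPM after ethanol, 11.7, 8.28 and 6.73 CPM after VEA 3.12, 4.96, 8.06 and 1.45 CPM after VEA 6.25 and 6.25, 8.37 and 7.83 CPM after VEA 12.5. No VEA animal reached the lowest ethanol animal. The falls were 1.21 (SE 0.35), 2.08 (SE 0.36) and 1.47 (SE 0.35) on the log2 scale (adjusted p = 0.0326, 0.000347 and 0.00484). The VEA 6.25 call held under all 13 alternatives, the VEA 3.12 call ended without ethanol 12, VEA 57 or VEA 59 (adjusted p up to 0.208) and the VEA 12.5 call without ethanol 12 (adjusted p = 0.0543). After PG its levels were 13.1, 11.6 and 7.81 CPM at 826 and 7.34, 11.7 and 9.35 CPM at 1100, against 14.6, 23.6 and 17.7 CPM after saline. The PG 1100 change did not pass (-0.97 ± 0.35, adjusted p = 0.084).

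Rsph1, another spoke head protein (chromosome 17, 31255019 to 31277383), passed at 1 VEA dose. Its levels were 19.3, 24.5 and 28.4 CPM after saline, 20.2, 20.4 and 20.4 CPM after PG 826 and 18.5, 14.2 and 30.1 CPM after PG 1100, so PG 30 was the highest of the 9. After ethanol and the VEA doses they were 27.7, 24.2 and 20.2 CPM, 23.3, 22.5 and 15.1 CPM, 16.8, 14.1 and 9.88 CPM and 19.6, 25.4 and 22.0 CPM, and the VEA 6.25 animals alone lay wholly below the ethanol animals. Rsph1 fell after VEA 6.25 (-0.81 ± 0.24, adjusted p = 0.0363), a call that ended without ethanol 12, ethanol 13, VEA 64 or VEA 65, with limma-voom or without the 3 libraries of fewest detected genes (adjusted p up to 0.305). Its estimate was -0.21 ± 0.24 after PG 1100 and turned to 0.0088 without PG 28, and it was -0.10 ± 0.23 after VEA 12.5 and turned to 0.0090 without ethanol 12. Rsph9, the third spoke protein listed, passed in no comparison, with 20.7 ± 6.59 CPM after ethanol and 15.4 ± 1.27 CPM after VEA 12.5.

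Ccdc39 and Ccdc40 form the ruler that spaces spokes and inner arms along the doublet. Ccdc39 (chromosome 3, 33812362 to 33844310) was spread widely in the saline animals, at 5.62, 10.8 and 21.9 CPM, and stood at 12.8, 10.7 and 9.17 CPM after PG 826 and 7.83, 4.98 and 12.9 CPM after PG 1100. In the ethanol animals it was 16.4, 16.5 and 13.4 CPM, and after the rising VEA doses 12.1, 9.03 and 10.7 CPM, 7.12, 5.76 and 9.15 CPM and 7.64, 7.31 and 4.54 CPM. All 9 VEA animals lay below all 3 ethanol animals, whereas the PG animals overlapped with saline. Ccdc39 fell by 1.24 on the log2 scale (SE 0.35) after VEA 12.5 (adjusted p = 0.0164), and that call ended without ethanol 12, ethanol 13 or VEA 70 or without the 3 libraries of fewest detected genes (adjusted p up to 0.123). It did not pass after VEA 6.25 (-1.07 ± 0.35, adjusted p = 0.063) or VEA 3.12 (-0.54 ± 0.34, adjusted p = 0.422), and its sign after PG hung on saline 10: the estimates of -0.23 and -0.58 became 0.41 and 0.067 without that animal.

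Ccdc40 was 5.49, 7.56 and 4.75 CPM after ethanol and 1.30, 2.72 and 0.602 CPM after VEA 6.25, with no overlap. It fell by 1.92 on the log2 scale (SE 0.50) (adjusted p = 0.0167), a call that ended without ethanol 13, VEA 63 or VEA 65 or without the 3 libraries of fewest detected genes (adjusted p up to 0.243).

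Of the 3 central apparatus members, 2 fell after PG 1100 and 1 each after VEA 3.12 and VEA 6.25, where 3.23, 2.09 and 2.25% of all genes fell. Hydin, a very large protein of the central pair projections (chromosome 8, 110266977 to 110610253), was 9.96, 11.0 and 8.27 CPM after saline, 3.07, 6.52 and 5.62 CPM after PG 826 and 2.995, 2.33 and 4.12 CPM after PG 1100. All PG animals lay below all saline animals. It fell by 1.62 on the log2 scale (SE 0.44) after PG 1100 (adjusted p = 0.015), a call that ended without PG 28 (adjusted p = 0.103). After VEA its estimates were -0.77 ± 0.42, -1.02 ± 0.42 and -0.97 ± 0.42 for the rising doses (adjusted p = 0.323, 0.165 and 0.148).

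Spef2, also of the central apparatus, fell after PG 1100 (-0.93 ± 0.29, adjusted p = 0.0451), VEA 3.12 (-1.04 ± 0.30, adjusted p = 0.0318) and VEA 6.25 (-0.99 ± 0.30, adjusted p = 0.0414). It was 21.7 ± 7.16 CPM after saline, 11.4 ± 5.28 CPM after PG 1100, 16.7 ± 5.35 CPM after ethanol and 8.11 ± 1.49 CPM after VEA 3.12. The calls ended without saline 8, saline 10, PG 27 or PG 28, with only the compared groups in the fit or without the 3 libraries of fewest detected genes (adjusted p up to 0.276) for PG 1100, without ethanol 12, ethanol 13, VEA 56, VEA 57 or VEA 59, with limma-voom or without the 3 libraries of fewest detected genes (adjusted p up to 0.181) for VEA 3.12 and without ethanol 12, ethanol 13, VEA 64 or VEA 65, with limma-voom or without the 3 libraries of fewest detected genes (adjusted p up to 0.242) for VEA 6.25. Spag17 passed in no comparison, and saline 8 (6.33 CPM) lay below all 6 PG animals.

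Neither cytoplasmic factor of dynein assembly was called. Lrrc6 was 13.4 ± 5.73 CPM after saline, 11.1 ± 4.25 CPM after PG 1100, 11.5 ± 2.16 CPM after ethanol and 9.62 ± 2.88 CPM after VEA 12.5. Zmynd10 was 4.89 ± 2.27, 4.11 ± 0.444, 3.88 ± 1.32 and 4.22 ± 1.22 CPM in the same groups. The median of both estimates lay between -0.27 and -0.07 in the 5 comparisons with a control. The 95% interval after VEA 12.5 was -0.91 to 0.39 for Lrrc6 and -0.79 to 1.04 for Zmynd10, and a difference from the dynein genes was not tested.

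Among microtubule-associated members, Tppp3, a tubulin-binding protein abundant in ciliated cells (chromosome 8, 105467493 to 105471526), gave some of the most precise estimates. Its levels were 425, 552 and 453 CPM after saline, 379, 277 and 350.4 CPM after PG 826 and 224, 304 and 404 CPM after PG 1100. They were 408, 406 and 331 CPM after ethanol and 284, 272 and 230.4 CPM, 262, 268 and 329 CPM and 229, 254 and 253 CPM after the rising VEA doses. Every treated group lay below its control, and PG 30 and VEA 65 came closest. Tppp3 fell by 0.62 (SE 0.16) after PG 1100, 0.54 (SE 0.16) after VEA 3.12 and 0.64 (SE 0.16) after VEA 12.5 (adjusted p = 0.0113, 0.0364 and 0.00702). It did not pass after PG 826 (-0.51 ± 0.16, adjusted p = 0.257) or VEA 6.25 (-0.41 ± 0.16, adjusted p = 0.126). The VEA 12.5 call held under all 13 alternatives, the PG 1100 call ended without saline 8, PG 27 or PG 28, with only the compared groups in the fit or without the 3 libraries of fewest detected genes (adjusted p up to 0.126) and the VEA 3.12 call without ethanol 12, ethanol 13, VEA 56, VEA 57 or VEA 59 or without the 3 libraries of fewest detected genes (adjusted p up to 0.185).

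Tekt4, a filament protein of the doublet wall, was 19.2, 11.0 and 6.26 CPM after ethanol and 5.63, 4.31 and 3.70 CPM after VEA 12.5. It fell by 1.41 (SE 0.39) after VEA 12.5 and 1.29 (SE 0.39) after VEA 3.12 (adjusted p = 0.0143 and 0.0426). These calls ended without ethanol 12, VEA 68 or VEA 70 (adjusted p up to 0.197) and without ethanol 12, ethanol 13, VEA 56, VEA 57 or VEA 59, with limma-voom or without the 3 libraries of fewest detected genes (adjusted p up to 0.342). Dcdc2a, a doublecortin protein of the cilium, fell after VEA 6.25 (-2.21 ± 0.61, adjusted p = 0.0264), from 9.08 ± 3.25 to 1.92 ± 2.001 CPM, with 0 counts in VEA 65. That call ended without ethanol 12, ethanol 13, VEA 64 or VEA 65, with only the compared groups in the fit or without the 3 libraries of fewest detected genes (adjusted p up to 0.242). Tekt1 passed in no comparison.

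The 6 members that serve transport, the centriole or other functions all fell after VEA 3.12, where 2.09% of all genes fell. Cep126, a centriole and basal body protein (chromosome 9, 8076461 to 8134294), was 11.1, 7.99 and 6.15 CPM after ethanol and 1.81, 2.79 and 0.110 CPM after VEA 3.12. It fell by 2.40 on the log2 scale (SE 0.56) (adjusted p = 0.00709), a call that held under all 13 alternatives. Ttc21a, of the intraflagellar transport family, was 7.02, 4.64 and 4.53 CPM after ethanol and 0.856, 1.72 and 0.441 CPM after VEA 3.12. It fell by 2.41 on the log2 scale (SE 0.63) (adjusted p = 0.0156), and the call ended without ethanol 12, VEA 56 or VEA 59 (adjusted p up to 0.0989). In both genes the highest VEA 3.12 animal lay below the lowest ethanol animal. Cep126 also fell after VEA 12.5 (-1.74 ± 0.53, adjusted p = 0.0305), to 2.70, 1.38 and 3.45 CPM, and that call ended without ethanol 12, ethanol 13, VEA 66 or VEA 68 (adjusted p up to 0.168).

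Ccdc113, a ciliary satellite and axoneme protein, stood at 15.6, 21.8 and 27.6 CPM in saline lungs and at 12.3, 10.6 and 10.4 CPM after PG 826, with no overlap, yet did not pass there (-0.97 ± 0.26, adjusted p = 0.146). It fell after VEA 3.12 (-0.91 ± 0.26, adjusted p = 0.0301), a call that ended without ethanol 12, ethanol 13, VEA 56, VEA 57 or VEA 59 or without the 3 libraries of fewest detected genes (adjusted p up to 0.134). Ak7, an adenylate kinase that balances nucleotides in the axoneme, was 20.96, 15.5 and 11.7 CPM after ethanol and 6.40, 7.15 and 10.2 CPM after VEA 12.5. It fell by 1.02 (SE 0.28) after VEA 12.5 and 0.98 (SE 0.28) after VEA 3.12 (adjusted p = 0.0137 and 0.0309). These calls ended without ethanol 12, VEA 66 or VEA 68 (adjusted p up to 0.122) and without ethanol 12, ethanol 13, VEA 56 or VEA 59 (adjusted p up to 0.197).

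Tmem212, a membrane protein of ciliated cells, was 21.7, 48.1 and 51.6 CPM after saline, where animal 6 stood at the level of the treated animals, and 21.7, 19.05 and 26.1 CPM after PG 1100. After ethanol it was 39.1, 37.6 and 34.6 CPM, and after the rising VEA doses 21.2, 27.2 and 14.1 CPM, 24.0, 19.6 and 19.6 CPM and 24.8, 22.6 and 18.9 CPM, all below ethanol. It fell by 0.86 (SE 0.23) after PG 1100 and by 0.83 (SE 0.23), 0.82 (SE 0.23) and 0.75 (SE 0.23) after the VEA doses (adjusted p = 0.0164, 0.028, 0.0302 and 0.0327). The PG 1100 call ended without saline 8, saline 10 or PG 28, with limma-voom, with only the compared groups in the fit or without the 3 libraries of fewest detected genes (adjusted p up to 0.143). The VEA calls ended without ethanol 12, ethanol 13, ethanol 14, VEA 56 or VEA 59 or without the 3 libraries of fewest detected genes (adjusted p up to 0.199) at 3.12, without ethanol 12, ethanol 13, ethanol 14, VEA 64 or VEA 65, with limma-voom or without the 3 libraries of fewest detected genes (adjusted p up to 0.202) at 6.25, and without ethanol 12, ethanol 13, ethanol 14, VEA 68 or VEA 70 or without the 3 libraries of fewest detected genes (adjusted p up to 0.172) at 12.5.

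Sec14l3, a lipid-binding protein of the Sec14 family and the most highly counted member (chromosome 11, 4064841 to 4077736), fell in 4 of the 5 comparisons. It stood at 2414, 3347 and 3187 CPM after saline, 3030.1, 2874 and 2689 CPM after PG 826 and 1865, 2133 and 2509 CPM after PG 1100. It stood at 3029.6, 2625 and 2544 CPM after ethanol and 1976, 1757 and 1692 CPM, 1609, 1644 and 2118 CPM and 1610.3, 1569 and 1495 CPM after the rising VEA doses. The 9 VEA animals lay below the ethanol animals, and the PG 826 animals lay within the saline range. Sec14l3 fell by 0.60 (SE 0.14), 0.61 (SE 0.14) and 0.81 (SE 0.14) after the VEA doses and by 0.46 (SE 0.14) after PG 1100 (adjusted p = 0.00794, 0.00699, 0.000143 and 0.0404). The change after PG 826 was -0.06 ± 0.14 (adjusted p = 0.946). The VEA 12.5 call held under all 13 alternatives. The call at 3.12 ended without ethanol 12 or VEA 59 (adjusted p up to 0.0621), at 6.25 without ethanol 12 or VEA 64 (adjusted p up to 0.0574), and after PG 1100 without saline 8, saline 10, PG 27 or PG 28, with only the compared groups in the fit or without the 3 libraries of fewest detected genes (adjusted p up to 0.301). None of the 50-base words in its last 1000 transcript bases occurs in its relatives Sec14l2 and Sec14l4.

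The PG doses were compared with each other to ask whether the higher dose lowered these genes further. No member was called between PG 1100 and PG 826 by edgeR, where 5.55% of all genes were called, and 4 members had an unadjusted p under 0.05 (3 lower and 1 higher at 1100). DESeq2 and limma-voom each called 1 member, and 2 were called without PG 30. The smallest p values belonged to Sec14l3 (-0.40 ± 0.14, adjusted p = 0.097), Dnaic1 (-0.93 ± 0.37, adjusted p = 0.157) and Ccdc151 (1.29 ± 0.55, adjusted p = 0.195). The members' median was -0.12. For Dnah5 the difference of -0.52 ± 0.32 had a 95% interval of -1.17 to 0.12.

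Between VEA 12.5 and VEA 3.12 no member and no gene was called by edgeR (0% of all genes), and 2 members had an unadjusted p under 0.05, Wdr63 (1.28 ± 0.54, adjusted p = 0.847) and Ccdc151 (1.15 ± 0.54, adjusted p = 0.883), both higher at 12.5. DESeq2 and limma-voom called no member. The third smallest p was that of Ccdc39 (-0.70 ± 0.35, adjusted p = 0.919). The members' median was -0.04. The 95% interval of the dose difference was -0.50 to 0.07 for Sec14l3 and -0.68 to 0.61 for Dnah5.

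The effect of VEA 12.5 was set against that of PG 1100 by testing the difference of the changes, each against its own control. No member was called by edgeR (0.19% of all genes were), and DESeq2 and limma-voom called none. Unadjusted p values under 0.05 were found for 2 members, Armc4 (1.999 ± 0.90, adjusted p = 0.564) and Dnah11 (1.14 ± 0.55, adjusted p = 0.613), both lower after PG 1100 than after VEA 12.5 in relation to control. Ccno had the next smallest p (-2.18 ± 1.18, adjusted p = 0.702). The 95% interval of the difference was -0.61 to 1.18 for Dnah5, -0.47 to 0.44 for Tppp3 and -0.47 to 0.66 for Foxj1, and the median SE of the 41 members was 0.55. The lists of called members overlapped in Dnah5, Tppp3, Tmem212 and Sec14l3, which make up 40% of the 10 called after PG 1100 and 33.3% of the 12 called after VEA 12.5.

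Ethanol was compared with saline to see how the controls themselves stood. Between ethanol and saline edgeR called no member and no gene (0% of all genes), no member had an unadjusted p under 0.05, and DESeq2 and limma-voom called none. The median was 0.01, with 20 of 41 estimates below 0. Tppp3 came nearest (-0.32 ± 0.16, adjusted p = 0.822), being the 1 member whose ethanol animals all lay below the saline animals (4.37% of all genes did). Dnali1 (-0.36 ± 0.19, adjusted p = 0.845) and Dnah9 (0.75 ± 0.41, adjusted p = 0.859) followed.

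Averaged over the 41 members as log2 CPM with a prior count of 2, the saline animals stood at 3.27, 3.33 and 3.65, the PG 826 animals at 2.97, 2.78 and 2.80, and the PG 1100 animals at 2.48, 2.602 and 3.10. The ethanol animals stood at 3.74, 3.46 and 2.99, and the VEA animals between 2.27 and 2.72. On this average all treated animals lay below all animals of their own control group. Ethanol 14 was the lowest of its group for 33 of 41 members and ethanol 12 the highest for 28. PG 30 was the highest of the PG 1100 animals for 28 members, and saline 10 the highest of the saline animals for 23.

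Club cell genes, which mark the secretory cells that neighbour ciliated cells in the airway, also fell against the controls. Of 16 listed, all 16 were tested, 7 fell after PG 1100, 6 after VEA 3.12, 6 after VEA 6.25 and 7 after VEA 12.5, none rose in these comparisons, and none passed after PG 826. The share of all genes that fell was 3.23% after PG 1100 and 2.09, 2.25 and 4.23% after the rising VEA doses. Between the PG doses, 5 of the 16 were called lower at 1100 (median -0.32), where 2.71% of all genes were. Of the 41 cilia genes 0 were called there (median -0.12). Scgb1a1, their main secretory protein, was 47441, 55295 and 62601 CPM after saline, 21296, 20729 and 27850.3 CPM after PG 1100, 62351, 59607 and 45259 CPM after ethanol and 25752, 24299.9 and 25889 CPM after VEA 12.5. The summed level of the list was 60659 to 83416 CPM after saline, 49475 to 53004 CPM after PG 826 and 28208 to 43200 CPM after PG 1100. It was 58542 to 82351 CPM after ethanol and 34091 to 39956, 35760 to 41290.1 and 32078 to 34082 CPM after the rising VEA doses. Within groups, saline 10, ethanol 12, PG 30, VEA 57 and VEA 63 were highest both in this sum and in the mean of the cilia genes. The orders differed in other places. After PG 826 the club cell sum was highest in PG 23, where the cilia mean was lowest, and the lowest sums after PG 1100 and VEA 12.5 were in PG 28 and VEA 68, while the lowest cilia means were in PG 27 and VEA 70. Among its genes Upk3a was at 0 in 1 library, PG 25. The part of this shared shift in the cilia result was not tested.

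A list of other airway epithelial genes was set beside the cilia genes. Of 17 listed, 15 were tested, and the list held 1 called gene after PG 1100 (Krt18, higher), 2 after VEA 3.12 (Cftr higher, Tmprss2 lower), and Cftr, higher, after VEA 6.25 and after VEA 12.5. Over all genes tested, 4.09, 3.42, 3.51 and 5.48% rose after PG 1100 and the rising VEA doses, and 2.09% fell after VEA 3.12. With 1 or 2 of 15 called, these counts are not a result about the airway epithelium. Whether the list reports airway cells alone in whole lung was not tested. Its median stayed between -0.16 and 0.09. Its summed level was 1070 to 1183 CPM after saline, 1156 to 1337 CPM after PG 1100, 1012 to 1114 CPM after ethanol and 936 to 1201 CPM over the 9 VEA animals. Foxi1, of ionocytes, was at 0 in some libraries.

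**Figure D3:**
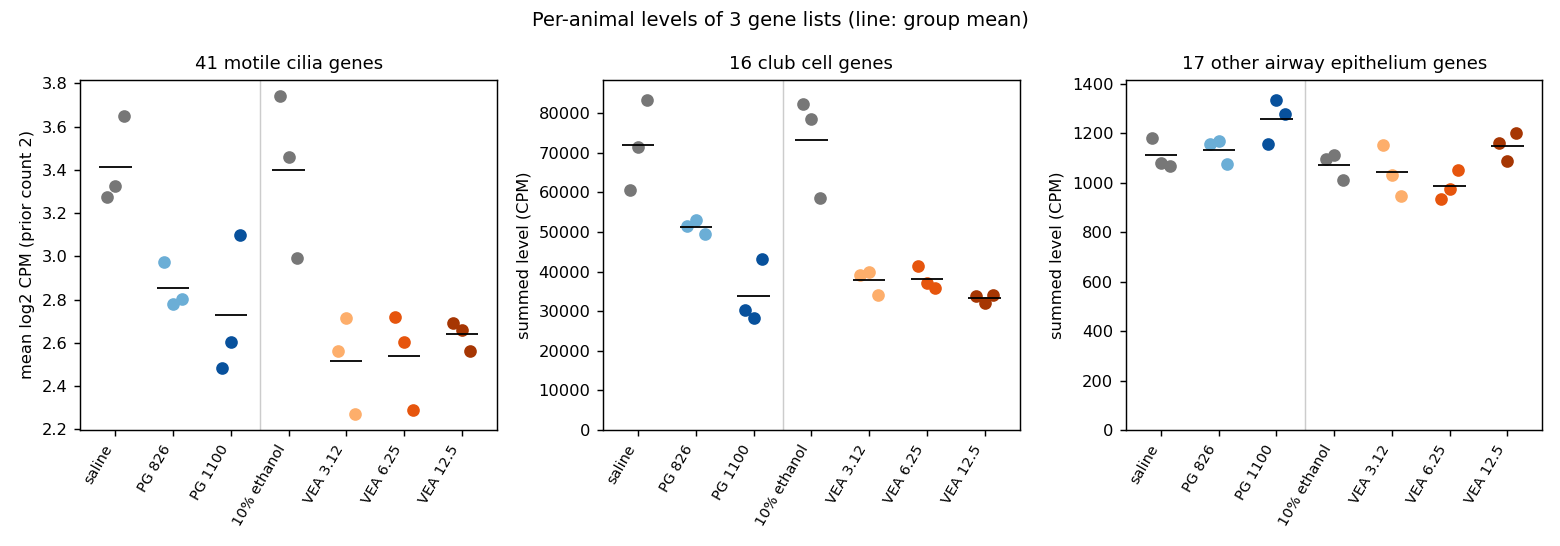
Each point is 1 animal and each line a group mean, for the mean log2 CPM of the 41 motile cilia genes (left, axis not from 0), the summed CPM of 16 club cell genes (middle) and the summed CPM of 17 other airway epithelium genes (right). Treated animals lie below their controls in the left and middle panels, and in the right panel the groups lie within 936 to 1337 CPM.

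In a list beside the members, that of other axonemal structure genes, 41 of 58 were tested. After PG 826 and PG 1100 none was called (medians -0.51 and -0.43), after VEA 3.12 2 fell and 1 rose (-0.67), after VEA 6.25 5 fell (-0.87) and after VEA 12.5 5 fell (-0.54). Over all genes tested, 0.0407, 3.23, 2.09, 2.25 and 4.23% fell in the same order, and 3.42% rose after VEA 3.12. The counts after PG and after VEA 3.12 are too small to be a result about this list. Cfap43, needed for axoneme stability, fell after VEA 6.25 (-1.34 ± 0.26, adjusted p = 0.000843) and VEA 12.5 (-1.04 ± 0.25, adjusted p = 0.0049). Ak8, an adenylate kinase, fell after VEA 3.12 (-1.60 ± 0.38, adjusted p = 0.0082), as did Mns1 (-0.84 ± 0.23, adjusted p = 0.0249), while Nme7 rose (0.46 ± 0.14, adjusted p = 0.044). Spag16, of the central apparatus, fell after VEA 12.5 (-1.56 ± 0.45, adjusted p = 0.0189).

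Intraflagellar transport, the traffic of cargo along the axoneme that motile and primary cilia share, was covered by 24 genes. Of these, 0 fell after PG 826, 1 after PG 1100, 3 after VEA 3.12, 1 after VEA 6.25 and 3 after VEA 12.5, and none rose. The share of all genes that fell was 0.0407, 3.23, 2.09, 2.25 and 4.23% in the same order. A count of 1 of 24 is near these shares and is not a result about this transport. The list was treated as a whole. Its medians lay between -0.36 and -0.13. Ift88 fell after VEA 3.12 (-0.97 ± 0.30, adjusted p = 0.0487) and VEA 12.5 (-1.32 ± 0.30, adjusted p = 0.00299), Wdr35 (-1.24 ± 0.29, adjusted p = 0.00612) and Dync2h1 (-1.06 ± 0.27, adjusted p = 0.0128) after VEA 3.12, and the transport motor Kif3a after PG 1100 (-0.69 ± 0.20, adjusted p = 0.0303). A difference between these genes and the members was not tested.

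Among 12 tested genes of other dynein subunits and assembly factors, Dnah8 fell after PG 1100 (-1.41 ± 0.38, adjusted p = 0.015) and Dynlrb2 after VEA 6.25 (-0.76 ± 0.23, adjusted p = 0.0494), and no others were called against a control. With 3.23 and 2.25% of all genes lower there, 1 of 12 is not a result about this list. Of 36 tested transcripts of ciliated cells with other functions, 3 fell after PG 1100, 5 after VEA 3.12, 5 after VEA 6.25 and 4 after VEA 12.5, and none rose. The share of all genes that fell was 3.23, 2.09, 2.25 and 4.23% in these 4 comparisons. Cdhr3, a cadherin of ciliated cells, fell in all 4 (-1.17 ± 0.29, -1.30 ± 0.29, -1.54 ± 0.29 and -1.28 ± 0.29). Iqca fell after the VEA doses (-1.46 ± 0.30, -1.67 ± 0.31 and -1.29 ± 0.30).

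The upstream programme by which a cell commits to many cilia was covered by 11 tested genes. None of these was called lower in any of the 5 comparisons with a control, where 0.0407, 3.23, 2.09, 2.25 and 4.23% of all genes were. Called higher were 0, 2, 2, 2 and 1, against 0.0951, 4.09, 3.42, 3.51 and 5.48% of all genes. With 11 genes tested, these counts are not a result about the programme. Plk4, a kinase that starts centriole duplication, rose after PG 1100 (1.40 ± 0.41, adjusted p = 0.0263), and E2f5, a cofactor of the programme that also serves the cell cycle, rose after VEA 3.12 (0.95 ± 0.22, adjusted p = 0.00709) and VEA 6.25 (0.83 ± 0.22, adjusted p = 0.0212). Stil, a centriole duplication gene of dividing cells, was called higher after PG 1100 and all 3 VEA doses. It had 0 counts in the ethanol libraries and 1.87 ± 0.552 CPM after VEA 12.5. Stil can thus have passed the count filter only through groups where it was higher, so its VEA calls are not independent of that filter. Gmnc, which opens the programme, averaged 2.71 ± 0.585 CPM in saline lungs against 1.17 ± 0.857 CPM at PG 1100 and did not pass (-1.21 ± 0.74, adjusted p = 0.39).

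**Figure D4:**
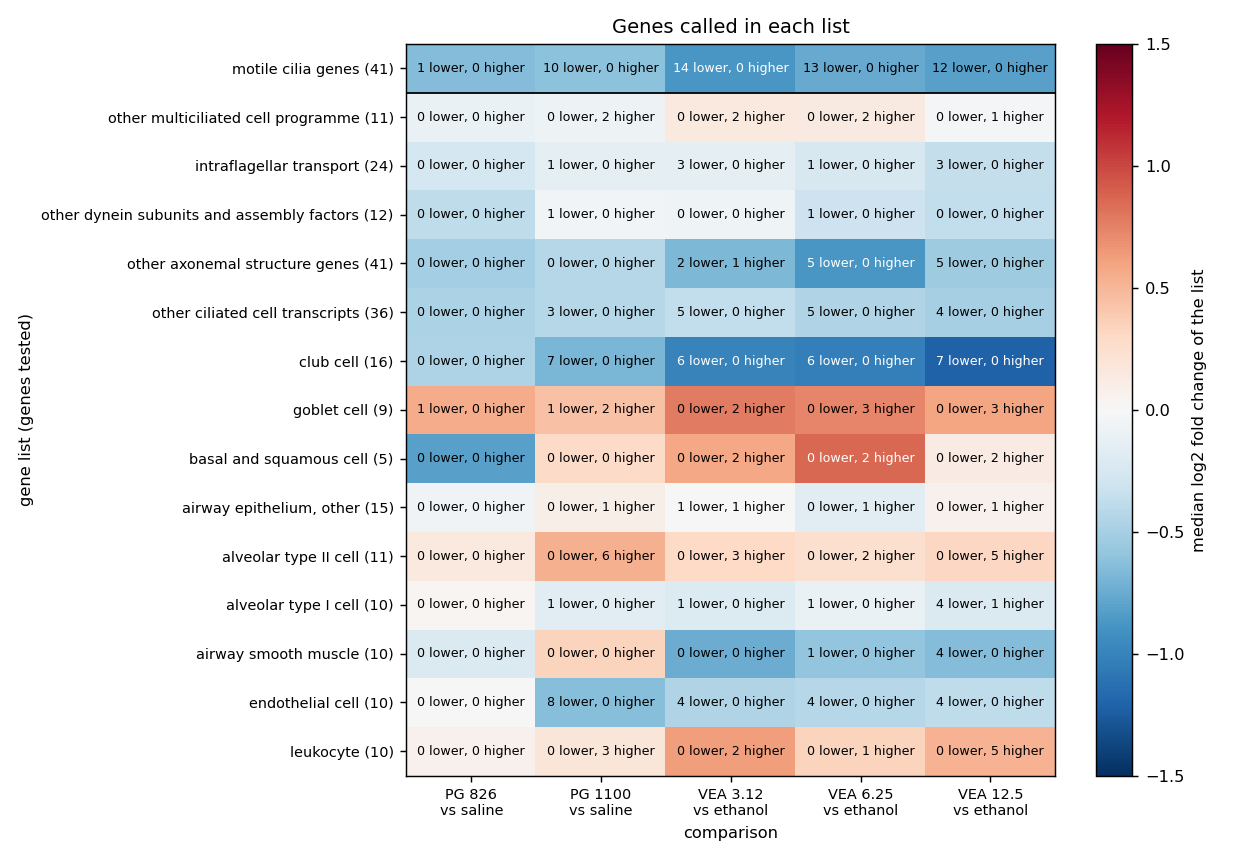
Median log2 fold change (colour) and number of genes called lower and higher (text) for the motile cilia genes and 14 other lists (rows, with the number of genes tested) in the 5 comparisons with a control (columns). Club cell genes reach a median of -1.22 after VEA 12.5, and goblet cell genes hold calls in the other direction, with 2 or 3 of 9 higher after each VEA dose. Several other lists also hold calls in that direction, among them basal and squamous cell genes with 2 of 5 after each VEA dose. Over all genes tested, 3.42, 3.51 and 5.48% were called higher after the rising VEA doses.

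Goblet cell genes, of mucus-producing cells, were called in the other direction after VEA, with 2, 3 and 3 of 9 tested called higher at the rising doses and none lower. Slc26a4 and Clca1 were among them at each dose. Their summed level was 37.2 to 124 CPM over the ethanol animals and 188 to 292 CPM over the VEA animals. Tff2 fell after both PG doses, and 2 goblet cell genes rose after PG 1100. Of 12 basal and squamous cell genes 5 were tested. Of these, 2 were called higher after each VEA dose, where 3.42, 3.51 and 5.48% of all genes were, and 0 were called after either PG dose. Their summed level overlapped, at 28.8 to 64.5 CPM after ethanol and 26.9 to 46.6 CPM after VEA 12.5. Over all genes tested, 0.0407% fell after PG 826, 3.23% after PG 1100 and 2.09, 2.25 and 4.23% after the rising VEA doses. After PG 1100 and the rising VEA doses 4.09, 3.42, 3.51 and 5.48% rose. These shares stand beside every list here. Genes listed for airway smooth muscle had 0 of 10 called after PG 1100 and 0, 1 and 4 lower after the rising VEA doses. Whether they report airway muscle alone in whole lung was not tested. With 10 genes, a count of 0 or 1 is not a result about a list. Of 10 endothelial genes 8 fell after PG 1100 and 4 after each VEA dose, and of 11 alveolar type II cell genes 6 rose after PG 1100 and 3, 2 and 5 after the rising VEA doses. Of 10 alveolar type I cell genes 1 fell after PG 1100, VEA 3.12 and VEA 6.25 each, and 4 fell and 1 rose after VEA 12.5. Leukocyte genes, of immune cells, had 3 of 10 tested called higher after PG 1100 and 2, 1 and 5 after the rising VEA doses, with none lower. Their summed level was 1611 to 2991 CPM after saline, 2960 to 5546 CPM after PG 1100, 2096 to 2539 CPM after ethanol and 2813 to 3129 CPM after VEA 12.5. Cd68, a macrophage lysosomal protein, was called higher after PG 1100 and after each VEA dose, with 33.8, 33.4 and 32.4 CPM after ethanol and 101, 100.4 and 103 CPM after VEA 12.5. The part of these shifts in the cilia result was not tested.

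The genes that tracked the members most closely were sought across all tested genes, as a description over 21 libraries that fall into groups. Each member correlated with the mean of the other members at a median r of 0.63, from 0.16 for Zmynd10 to 0.85 for Spef2. Outside the list, the 10 genes with the highest r with the members' mean were Kif21a (0.93), 1700026D08Rik (0.93), Gabrp (0.91), Scgb1a1 (0.89), Gstm2 (0.88), Gm973 (0.88), Cbr2 (0.88), Ak8 (0.87), Fxyd1 (0.87) and Cdhr3 (0.87). Scgb1a1 and Cbr2 are club cell genes, and Ak8 and Cdhr3 stand on the cilia lists above. In the first 100 such genes, 13 belonged to one of the cilia lists, which hold 11, 24, 12, 41 and 36 of the 14727 genes tested. The others lay outside these lists, among them the club cell gene Cyp2f2 and the endothelial gene Calcrl.

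Kif21a, a kinesin motor, stood at 32.9, 41.9 and 47.1 CPM in saline lungs and at 24.3, 21.3 and 21.7 CPM and 21.3, 20.3 and 31.3 CPM after PG 826 and 1100. It was 45.1, 34.7 and 34.4 CPM after ethanol and 15.6, 20.1 and 11.2 CPM, 18.3, 14.2 and 11.4 CPM and 16.2, 14.5 and 13.3 CPM after the rising VEA doses. All VEA animals lay below the ethanol animals and all PG animals below saline. The unnamed gene model 1700026D08Rik was 25.5 ± 5.51 CPM after ethanol and 9.55 ± 1.28 CPM after VEA 12.5, and 24.3 ± 7.67 and 13.0 ± 5.35 CPM after saline and PG 1100. Gabrp, a GABA receptor subunit of epithelia, had the ethanol animals in the same order as the members' mean (259, 222 and 95.3 CPM).

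Reads from 3′ ends can be shared where genes overlap, and the counting is not stated to use strand. In the annotation, 8 of the 43 genes have an exon of another gene within their last 1000 bases: Dnah11, Dnaic1, Dnah6, Dnali1, Rsph9, Ccdc39, Spag17 and Zmynd10. For Dnaic1 this is Enho, for Dnah11 Cdca7l and for Ccdc39 Ttc14, each on the opposite strand, so the levels of these members are uncertain to that extent.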

How the data were processed

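Lung RNA (500 ng) was made into Lexogen QuantSeq 3′ libraries, per the labels' protocols. The deposited values are raw counts per gene symbol, 1 table per library; the authors used Bowtie2, bedtools and mm10, per the submitters' processing notes, and the versions, annotation and counting strand are not given in the sources used here. Symbols on more than 1 row (35) were summed. Genes were filtered with filterByExpr, scaled by TMM and tested with edgeR 4.0.16 (quasi-likelihood, all 7 groups in 1 fit, 14 residual degrees of freedom, Benjamini-Hochberg over 14727 genes; R 4.3.3). The code was run on counts simulated from the means and spread of this fit, which cannot speak to how calls depend on single animals. Alternatives were RLE scaling, DESeq2 1.42.0, limma-voom 3.58.1, no count filter, only the compared groups, 3 low-detection libraries left out, Rn45s and haemoglobin left out, and each animal left out. Members and lists were chosen with earlier results of these data known. The text names the 6 called members with the smallest p per comparison, 8 plotted members, and others by role. Coordinates are GENCODE M21 (GRCm38); promoter sequences are RefSeq GRCm38.p6. Total counts were 8778028 to 11783151 per library.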

Additional observations from a re-analysis of the deposited data

How the results depend on the processing

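Scaling by RLE, or leaving out Rn45s and haemoglobin genes, kept the counts of members called within 1.5 times of 1, 10, 14, 13 and 12 (PG 826, PG 1100, VEA 3.12, 6.25 and 12.5). After PG 826, DESeq2 called 2 and the fit without a count filter 3, against 0.268 and 0.395% of all genes called lower. With only the compared groups or without the 3 low-detection libraries 0 were called, against 0.0517 and 0.0134%. After PG 1100, 3 were called with only the compared groups and 6 without the low-detection libraries, against 1.36 and 2.66% of all genes. Leaving out the low-detection libraries gave 7, 4 and 8 after the VEA doses, against 1.21, 0.682 and 3.04%. Between the PG doses DESeq2 and limma-voom each called 1. Leaving out 1 animal at a time gave 0 to 3 after PG 826, 4 to 10 after PG 1100, 2 to 16 after VEA 3.12, 4 to 14 after VEA 6.25, 2 to 11 after VEA 12.5 and 0 to 2 between the PG doses. The share of all genes called lower was then 0.0133 to 0.24, 1.47 to 3.56, 0.924 to 1.46, 0.931 to 2.09 and 2 to 2.94% in the first 5. Of 50 calls of a member in a comparison, 8 held under every alternative, 42 were lost in at least 1, and 0 changed sign. Estimates that turned sign were not calls. Over the 13 alternatives, Ccdc39 ranged from -0.59 to 0.41 after PG 826 and from -0.99 to 0.067 after PG 1100 (highest without saline 10). Over the same alternatives Rsph1 ranged from -0.56 to 0.0088 after PG 1100 (highest without PG 28) and from -0.21 to 0.0090 after VEA 12.5 (highest without ethanol 12). The cause was not tested. With 18 members under 5 CPM, depth limits what could be called among them. No paired analysis was possible because animal numbers are not shared between groups.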
